A study of Rattus norvegicus with 18 samples.

Results

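Piezo1, Piezo2, Asic1, Asic2 and Asic3, genes of ion channels that open to mechanical force or to acid, were followed through the dorsal root ganglia of rats. They were chosen by symbol, with earlier results of these data known, and all 5 were found among the 25678 genes of the deposited count table. All 5 were also among the 17043 genes with enough reads to be tested. On the genome build mRatBN7.2 the tables place Piezo1 on chromosome 19, Piezo2 on chromosome 18, Asic1 on chromosome 7, Asic2 on chromosome 10 and Asic3 on chromosome 4.

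Piezo channels are large trimeric proteins that open when the membrane is stretched and let cations in. Piezo2 is the main transducer of light touch and of limb position in sensory neurons, whereas Piezo1 is best known from vessel walls and blood cells. Acid-sensing ion channels (ASICs) are sodium channels of the degenerin and epithelial sodium channel family, and they open when the fluid outside the cell turns acid. ASIC1 and ASIC2 occur in central and peripheral neurons, and ASIC2 subunits change the acid sensitivity of channels they join. ASIC3, which is most abundant in sensory neurons, carries currents evoked by mild acidosis of muscle, heart and joint.

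The study measured messenger RNA of the ganglia by sequencing and asked through which genes Shentong Zhuyu decoction, a preparation of 12 ingredients, acts in neuropathic pain. Its 18 libraries formed 6 groups of 3. NPP_herb libraries came from rats in the state labelled NPP given herb, and NPP_solvent libraries from rats in that state given solvent. Sham_herb and Sham_solvent libraries came from rats in the state labelled Sham, given herb and solvent. Ctrl_solvent libraries came from rats in the state labelled Ctrl given solvent, and Ctrl libraries carry that label for both state and treatment. NPP is not spelled out in the labels and is taken here as the pain model. Strain, age, sex, the way the model was made, the dose, the time of sampling and the ganglia taken are not given in the labels used here. Nor is it stated whether each library of a group is a rat of its own, so the p-values rest on the variation among these 3 libraries a group, and that variation could be technical.

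In units of 1e6 counted reads, libraries held 18.2 to 50.3 (median 28.4). Defining markers of sensory neurons, such as Tubb3 (1421 to 1989 FPKM, reads scaled to gene length and library size) and Uchl1 (2240 to 3334 FPKM), were high in every library. Of the spinal cord list, the myelin marker Mog had 0 to 22 reads, Gfap, which satellite glia also express, had 228 to 804 reads, and Slc17a6, a glutamate transporter that sensory neurons also express, had 2097 to 6387 reads. The fat cell markers Adipoq and Plin1 had 0 to 12 each. Reads of the Y-linked genes Eif2s3y, Kdm5d and Uty summed to 2602 to 7894 in 16 libraries and to at most 1 in the other 2, Ctrl replicates 2 and 3. For the channels, the fold changes relative to Ctrl, the test of any group difference and the correlations that passed are therefore given with and without those 2 libraries. Overlaps between groups, marker values and counts of genes called are not given without them. Libraries also differed in how strongly counts leaned towards long genes. This was measured as the slope of the log2 CPM (counts scaled to library size) of genes, each relative to its mean over libraries, on the log2 of gene length, and it ran from -0.14 in Sham_solvent replicate 1 to 0.11 in NPP_solvent replicate 3.

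The 250 bases before the annotated starts of the ASIC genes are shown because these 3 genes of one family varied together in part, as described further on. They are RefSeq sequences of the build GRCr8, which differs from the build of the count table. The Asic2 starts are numbered by rising coordinate, so that on the minus strand the second lies upstream of the first. Capitals mark a GC box (GGGCGG, or CCGCCC on the other strand), a TATA box (TATAAA, or TTTATA on the other strand) or a CCAAT box (CCAAT, or ATTGG on the other strand).
Asic1 (chr7:132678457-132678706, plus strand): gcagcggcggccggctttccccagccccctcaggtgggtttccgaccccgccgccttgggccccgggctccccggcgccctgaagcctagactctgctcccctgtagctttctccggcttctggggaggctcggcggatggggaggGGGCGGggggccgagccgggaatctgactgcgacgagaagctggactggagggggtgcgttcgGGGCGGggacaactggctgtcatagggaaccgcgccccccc
Asic2, first start (chr10:66636062-66636311, minus strand): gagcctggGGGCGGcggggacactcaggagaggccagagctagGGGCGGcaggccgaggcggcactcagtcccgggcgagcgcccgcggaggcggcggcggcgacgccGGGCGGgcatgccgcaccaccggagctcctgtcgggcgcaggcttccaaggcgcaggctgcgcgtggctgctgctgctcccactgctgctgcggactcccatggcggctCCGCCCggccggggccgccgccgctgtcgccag
Asic2, second start (chr10:67438238-67438487, minus strand): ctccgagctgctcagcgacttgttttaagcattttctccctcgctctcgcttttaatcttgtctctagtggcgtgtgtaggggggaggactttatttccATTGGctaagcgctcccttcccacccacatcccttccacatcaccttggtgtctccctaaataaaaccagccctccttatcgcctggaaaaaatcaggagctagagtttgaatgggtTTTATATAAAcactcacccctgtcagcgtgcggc
Asic3 (chr4:11657368-11657617, minus strand): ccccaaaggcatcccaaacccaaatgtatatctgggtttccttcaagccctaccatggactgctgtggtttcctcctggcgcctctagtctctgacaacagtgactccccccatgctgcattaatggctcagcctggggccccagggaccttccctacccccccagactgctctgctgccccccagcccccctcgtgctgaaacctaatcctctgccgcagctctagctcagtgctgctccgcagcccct
The Asic1 and first Asic2 windows were alike in holding GC boxes but no TATA or CCAAT box, and the others held no GC box. The Asic1 window held 2 GC boxes, and the first Asic2 window held 4, at a content of guanine and cytosine of 72.8% and 78.8%. The second Asic2 window held a CCAAT box and a stretch that reads as a TATA box on both strands, with the 2 matches overlapping, at 49.6% guanine and cytosine. The Asic3 window, at 60.4%, held none of these letters. Over all 33469 windows of that length, 30.5% held a GC box, 12.9% a TATA box and 34.0% a CCAAT box, and the median content of guanine and cytosine was 51.2%. The window before Piezo2, not printed, held 1 GC box and 1 CCAAT box. Such matches describe the letters only, and gene-level reads do not tell which Asic2 start, or which splice form of Asic1, was in use.

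Per length of gene, the 5 channels kept one order in 18 of 18 libraries, with Asic3 highest, then Asic1, Piezo2, Asic2 and Piezo1. Over the 18 libraries Asic3 averaged 51.4 ± 6.79 FPKM, Asic1 24.5 ± 2.05, Piezo2 19.3 ± 2.73, Asic2 5.57 ± 0.674 and Piezo1 0.502 ± 0.111 (SD). The lowest Asic3 library (37.55 FPKM) lay above the highest Asic1 library (28.47 FPKM), and the median Asic3 to Asic1 ratio was 2.16. Asic1 and Piezo2 were neighbours whose ranges overlapped, since the lowest Asic1 library had 20.65 FPKM and the highest Piezo2 library 24.44 FPKM, although Asic1 was the higher one within each library, by 1.07 to 1.74 times. Piezo2 stood a median of 3.42 times above Asic2, and Asic2 a median of 10.8 times above Piezo1, with no overlap in either case. By CPM, which takes no account of gene length, the long Piezo2 came first of the 5, above 95.8% of all tested genes, and Piezo1 was above 35.1% of them.

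**Figure D1:**
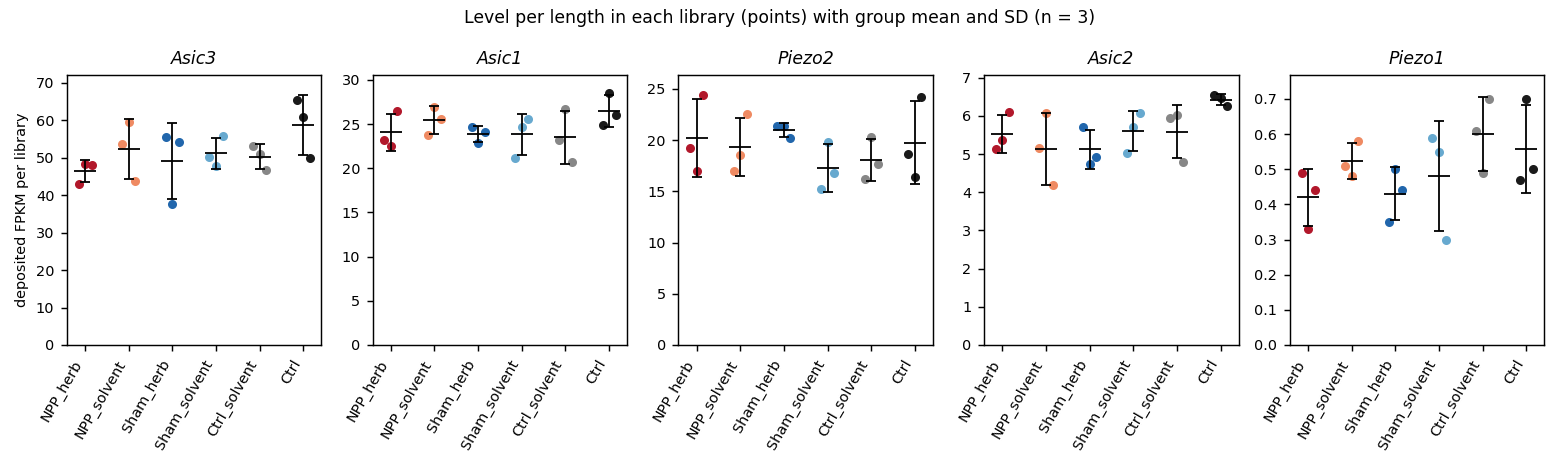
Deposited FPKM of each channel gene in every library (points, 3 per group), with the group mean (wide bar) and SD (whiskers); each panel has its own axis from 0. Asic3 lies between 37.55 and 65.36 FPKM and Piezo1 between 0.30 and 0.70 FPKM, and the groups of a panel overlap in most cases.

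Asic3, the subunit most tied to sensory neurons, had 42.97, 48.25 and 48.12 FPKM in NPP_herb, and 53.79, 59.42 and 43.81 FPKM in NPP_solvent. It had 55.61, 37.55 and 54.20 FPKM in Sham_herb, and 50.18, 47.72 and 55.80 FPKM in Sham_solvent. It had 53.21, 50.92 and 46.66 FPKM in Ctrl_solvent, and 65.36, 60.91 and 49.96 FPKM in Ctrl. The lowest library was Sham_herb replicate 2 and the 2 highest were in Ctrl, while every group overlapped with every group it was compared with.

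Asic1, the subunit that forms proton-gated channels on its own throughout the nervous system, had the smallest SD relative to its mean CPM, at 8.36% over the 18 libraries. Its values were 23.19, 22.54 and 26.45 FPKM in NPP_herb, and 23.77, 26.95 and 25.62 FPKM in NPP_solvent. They were 24.68, 22.83 and 24.07 FPKM in Sham_herb, and 21.21, 24.71 and 25.56 FPKM in Sham_solvent. They were 23.17, 26.68 and 20.65 FPKM in Ctrl_solvent, and 24.89, 28.47 and 26.04 FPKM in Ctrl. Ctrl held the highest library of all and Ctrl_solvent the lowest, and the groups still overlapped.

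Asic2, the modulatory subunit, had 5.12, 5.37 and 6.09 FPKM in NPP_herb, and 5.16, 6.07 and 4.18 FPKM in NPP_solvent. It had 5.71, 4.75 and 4.91 FPKM in Sham_herb, and 5.03, 5.72 and 6.07 FPKM in Sham_solvent. It had 5.95, 6.02 and 4.80 FPKM in Ctrl_solvent, and 6.54, 6.46 and 6.27 FPKM in Ctrl. The 3 Ctrl libraries were the 3 highest of all 18, and no other pair of groups compared here was apart.

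Piezo2, the touch and proprioception channel, had 19.22, 17.00 and 24.44 FPKM in NPP_herb, and 17.02, 18.58 and 22.51 FPKM in NPP_solvent. It had 21.39, 21.36 and 20.22 FPKM in Sham_herb, and 15.25, 19.79 and 16.82 FPKM in Sham_solvent. It had 16.25, 20.31 and 17.68 FPKM in Ctrl_solvent, and 18.65, 16.38 and 24.24 FPKM in Ctrl. The Sham_herb libraries were close together and all above the Sham_solvent libraries, whereas NPP_herb and Ctrl each spanned most of the whole range.

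Piezo1, the stretch channel of vessels, was low, with 71 to 330 reads per library, so that its relative counting error is larger than that of the other channels. Its values were 0.49, 0.33 and 0.44 FPKM in NPP_herb, and 0.51, 0.48 and 0.58 FPKM in NPP_solvent. They were 0.35, 0.50 and 0.44 FPKM in Sham_herb, and 0.59, 0.55 and 0.30 FPKM in Sham_solvent. They were 0.61, 0.49 and 0.70 FPKM in Ctrl_solvent, and 0.47, 0.70 and 0.50 FPKM in Ctrl. The highest of the 6 herb libraries had 0.50 FPKM. At or under that level were also 2 of the 6 solvent libraries of NPP and Sham, as well as Ctrl_solvent replicate 2 and Ctrl replicates 1 and 3.

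The effect of the pain model under solvent is the difference of NPP_solvent from Sham_solvent, and none of the 5 channels passed the test. Piezo2 averaged 231 ± 31.9 CPM in NPP_solvent and 209 ± 22.1 CPM in Sham_solvent (SD, n = 3 each), a log2 fold change of 0.14 ± 0.15 (SE; edgeR, adjusted p = 0.819), which was -0.032 with the slope towards long genes as a covariate. Asic2 averaged 18.8 ± 3.53 CPM in NPP_solvent and 20.8 ± 1.42 CPM in Sham_solvent, a log2 fold change of -0.15 ± 0.14 (edgeR, adjusted p = 0.795). Asic3 was almost level at 127 ± 19.8 CPM in NPP_solvent and 126 ± 10.6 CPM in Sham_solvent, with a log2 fold change of 0.0054 and a 95% interval from -0.32 to 0.33. The intervals for Asic1 (-0.15 to 0.30) and Piezo1 (-0.45 to 0.62) also covered 0. All 5 genes overlapped between the groups, where 8.11% of all tested genes did not overlap. Of all 17043 genes, 0 were called by edgeR (0%), 967 had an unadjusted p under 0.05, and DESeq2 called 0. These are bulk values, in which fewer cells of a type and less RNA per cell cannot be told apart.

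Under the decoction the model was compared as NPP_herb with Sham_herb, and again none of the channels passed. The largest difference was that of Asic2, at 20.2 ± 1.69 CPM in NPP_herb and 18.7 ± 2.02 CPM in Sham_herb, a log2 fold change of 0.11 ± 0.14. Asic1, at 163 ± 11.5 CPM in NPP_herb and 161 ± 8.40 CPM in Sham_herb, had an interval from -0.21 to 0.24. All 5 genes overlapped, against 7.35% of all tested genes that did not, and edgeR called 0 genes of the table (0%; 238 with an unadjusted p under 0.05, and 2 called by DESeq2). With both treatments averaged, NPP against Sham gave log2 fold changes from -0.04 (Asic3) to 0.04 (Piezo2), with intervals no wider than -0.35 to 0.41 (Piezo1). No channel separated the 6 NPP from the 6 Sham libraries, as 0.123% of all genes did, and the count of calls was 0 (0%; 432 with an unadjusted p under 0.05, and 0 called by DESeq2).

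The comparison of NPP_herb with NPP_solvent, on which the study's question centres, likewise gave no call among the channels. Piezo1 averaged 4.94 ± 0.908 CPM in NPP_herb and 6.14 ± 0.566 CPM in NPP_solvent, a log2 fold change of -0.31 ± 0.25 with an interval from -0.85 to 0.23 (edgeR, adjusted p = 1.00). Asic3 averaged 112 ± 8.81 CPM in NPP_herb and 127 ± 19.8 CPM in NPP_solvent, a log2 fold change of -0.17 ± 0.15 (interval -0.50 to 0.15). The changes of Asic1 (-0.08 ± 0.10), Piezo2 (0.06 ± 0.15) and Asic2 (0.11 ± 0.14) were within 1 SE of 0. All 5 overlapped between the groups, against 5.3% of tested genes that did not, and edgeR called 0 genes (0%; 319 with an unadjusted p under 0.05, and 1 called by DESeq2).

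Among Sham rats, Piezo2 was the one channel whose herb and solvent libraries did not overlap. It had 256, 250 and 242 CPM in Sham_herb, against 192, 234 and 201 CPM in Sham_solvent, and all 3 Sham_herb libraries were higher. The log2 fold change was 0.25 ± 0.15 with an interval from -0.08 to 0.58, which did not pass (edgeR, adjusted p = 0.525). In this comparison 8.52% of all tested genes had every Sham_herb library above every Sham_solvent library, and 14.6% did not overlap in either direction. The slope towards long genes was 0.05, 0.08 and 0.05 in Sham_herb and -0.14, 0.07 and -0.08 in Sham_solvent. These slopes overlapped between the groups. With the slope as a covariate the Piezo2 log2 fold change was 0.0032, and the part of the slope in the Piezo2 difference was not tested. Asic2 (-0.16 ± 0.14), Piezo1 (-0.19 ± 0.25), Asic3 (-0.09 ± 0.15) and Asic1 (-0.02 ± 0.10) were all lower in Sham_herb by amounts that did not pass. EdgeR called 0 genes (0%; 1686 with an unadjusted p under 0.05, and 0 called by DESeq2), but 485 without Sham_solvent replicate 2, none of them one of the channels.

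With NPP and Sham averaged, herb against solvent gave its largest values for the Piezo pair. Piezo1 averaged 5.01 ± 0.791 CPM in the 6 herb libraries and 5.96 ± 1.34 CPM in the 6 solvent libraries, a log2 fold change of -0.25 ± 0.17 (edgeR, adjusted p = 0.782). Piezo2 averaged 245 ± 26.6 CPM in the herb libraries and 220 ± 27.2 CPM in the solvent libraries, a log2 fold change of 0.16 ± 0.11 (edgeR, adjusted p = 0.782). Asic3 averaged 116 ± 17.5 CPM with herb and 126 ± 14.2 CPM with solvent (-0.13 ± 0.11), and the log2 fold changes of Asic1 (-0.05 ± 0.07) and Asic2 (-0.02 ± 0.10) were within 1 SE of 0. No channel separated the treatments, which 0.199% of tested genes did, and edgeR called 0 genes (0%; 875 with an unadjusted p under 0.05, and 2 called by DESeq2). The herb effect in NPP minus that in Sham was largest for Asic2, at 0.26 ± 0.20 (interval -0.17 to 0.69; edgeR, adjusted p = 0.920). For Piezo2 it was -0.19 ± 0.21, and edgeR called 0 genes for this difference (0%; 580 with an unadjusted p under 0.05, and 3 called by DESeq2). With the length slope as a covariate the averaged Piezo2 change was 0.02, and the averaged Piezo1 change ran from -0.38 without Sham_solvent replicate 3 to -0.15 without Sham_solvent replicate 1.

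The comparison of Ctrl_solvent with Ctrl held the smallest unadjusted p of the ASIC genes. All 3 were lower in Ctrl_solvent, but none passed. Ctrl replicates 2 and 3 lack Y-linked reads, which all Ctrl_solvent libraries have. Solvent can therefore not be told apart here from whatever those reads mark. Asic1 averaged 157 ± 23.1 CPM in Ctrl_solvent and 181 ± 10.1 CPM in Ctrl, a log2 fold change of -0.21 ± 0.10 (edgeR, adjusted p = 0.411). Asic2 had 21.4, 22.0 and 16.9 CPM in Ctrl_solvent, against 24.3, 23.4 and 23.3 CPM in Ctrl, so that all Ctrl_solvent libraries were lower; its log2 fold change was -0.24 ± 0.14 (edgeR, adjusted p = 0.493). Of all tested genes, 8.15% had every Ctrl_solvent library below every Ctrl library, and 16.6% did not overlap in either direction. Asic3 averaged 120 ± 9.51 CPM in Ctrl_solvent and 143 ± 18.9 CPM in Ctrl, a log2 fold change of -0.26 ± 0.15 (edgeR, adjusted p = 0.482). Piezo2 (-0.17 ± 0.15) and Piezo1 (0.06 ± 0.25) overlapped.

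Some signs of cell content moved with these values. The 8 sensory neuron markers summed to 9973 to 11989 CPM in Ctrl_solvent and 12011 to 12781 CPM in Ctrl. That sum weighs the most abundant markers most. With each marker taken as log2 CPM relative to its mean over libraries, the mean of the 8 overlapped between the groups. Replicates 1 to 3 of Ctrl_solvent then had -0.12, 0.08 and -0.13, against 0.04, 0.01 and 0.10 for those of Ctrl. The macrophage markers summed to 108 to 399 CPM in Ctrl_solvent and 53.6 to 101 CPM in Ctrl. Of these lists 6 of 8 neuron markers had a negative log2 fold change (median -0.14) and 6 of 6 macrophage markers a positive one (median 2.06). Negative values were also seen for 5 of 5 Schwann cell markers (median -0.30), 3 of 3 peptidergic nociceptor markers (median -0.29) and 9 of 10 markers of large-diameter neurons (median -0.18), where all tested genes had a median of 0.01. Some lists leaned the other way, among them fibroblasts (3 of 4 markers positive, median 0.39) and satellite glia (2 of 3 markers positive, median 0.13). None of these markers was called by edgeR, and their part in the ASIC values was not tested. Against the single Ctrl library with Y-linked reads, a fit that takes its spread from the other groups gave -0.13 ± 0.15 for Asic1, -0.28 ± 0.20 for Asic2 and -0.43 ± 0.20 for Asic3, and these did not pass (edgeR, lowest adjusted p = 0.919). The same fit gave -0.09 ± 0.19 for Piezo2 and 0.28 ± 0.36 for Piezo1. Without Ctrl_solvent replicate 2, Asic1 came nearest to the threshold, at -0.32 (edgeR, adjusted p = 0.0917), and 717 genes of the table were called. With all libraries edgeR called 0 genes (0%; 2218 with an unadjusted p under 0.05), while DESeq2 called 471, none of them one of the channels.

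Sham_solvent against Ctrl_solvent, the step from control to Sham under solvent, showed small differences. Piezo1 averaged 5.78 ± 2.01 CPM in Sham_solvent and 6.92 ± 1.10 CPM in Ctrl_solvent, a log2 fold change of -0.26 ± 0.25 that was 0.00091 without Sham_solvent replicate 3, and the other 4 channels lay between -0.02 (Piezo2) and 0.08 (Asic3). All 5 overlapped, against 7.14% of tested genes that did not, and edgeR called 0 genes (0%; 1043 with an unadjusted p under 0.05, 35 called by DESeq2, and 241 by edgeR without Ctrl_solvent replicate 2). Asked for any difference among the 6 groups, edgeR gave adjusted p from 0.607 (Asic2) to 0.770 (Piezo2), and from 0.914 to 0.958 without the 2 Ctrl libraries that lack Y-linked reads, with 0 genes called in the table (0%; 1745 with an unadjusted p under 0.05, 475 called by DESeq2, and 305 by edgeR without Ctrl_solvent replicate 2).

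**Figure D2:**
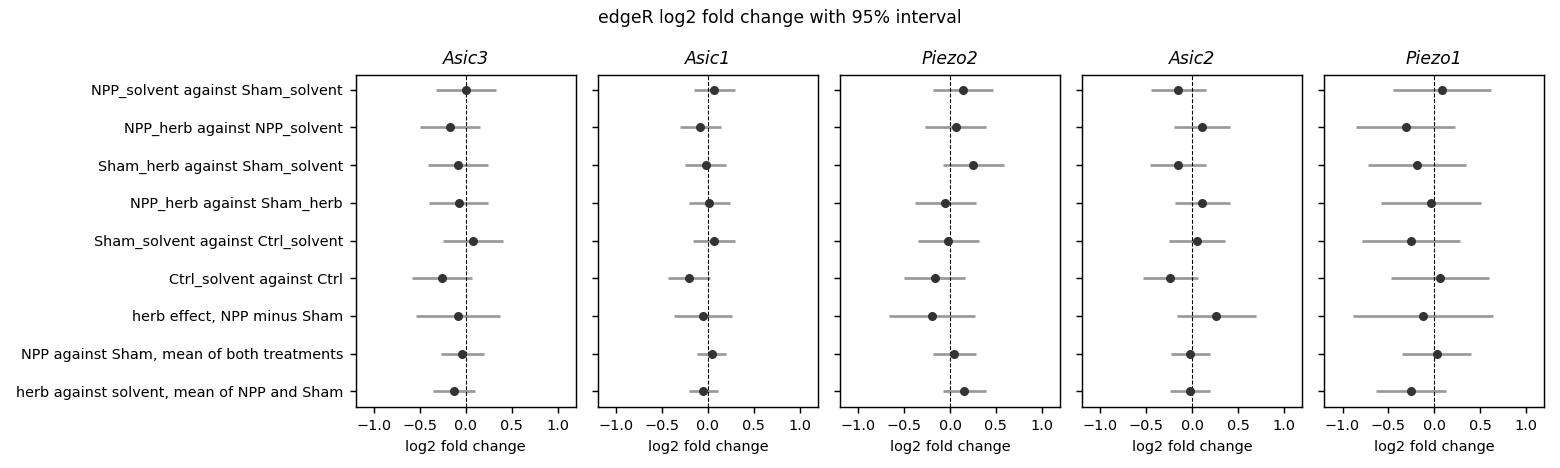
Log2 fold change (points) of each channel gene in 9 comparisons with its 95% interval (lines), from the edgeR fit over 18 libraries. Every interval crosses 0, and those of Piezo1, the gene with the fewest reads, are the widest.

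Across the 18 libraries the channels did vary together in part. Log2 CPM was compared in 25 relations, 10 between the channels and 15 with the length slope, with sequencing depth and with a sensory neuron score, the mean log2 CPM of 8 neuronal markers relative to their mean over libraries. Asic2 and Asic3 had r = 0.711 and rho = 0.676 (permutation p = 0.00098 and 0.00275, adjusted p = 0.00817 and 0.0172). That r was 0.613 without the 2 libraries farthest from the median of Asic3, 0.710 within groups and 0.714 without the 2 Ctrl libraries that lack Y-linked reads. It also passed with any 1 library left out, with r from 0.660 to 0.760. Libraries high in one of these genes tended to be high in the other over all 18. The r within groups had the same sign but was not tested.

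Asic1 and Asic2 had r = 0.613 and rho = 0.705 (permutation p = 0.00655 and 0.00162, adjusted p = 0.0397 and 0.0135), with 0.762 without the 2 farthest libraries and 0.650 within groups. This relation did not pass without the 2 Ctrl libraries (r = 0.524), nor without NPP_solvent replicate 2 (0.595), Sham_herb replicate 2 (0.578), Sham_solvent replicate 3 (0.603), Ctrl_solvent replicate 3 (0.539) or Ctrl replicate 2 (0.566), nor on log2(FPKM + 0.1) (r = 0.581, adjusted p = 0.0564). Asic1 and Asic3 had r = 0.503 (permutation p = 0.0334, adjusted p = 0.0835). Piezo2 had r between -0.324 and 0.334 with the ASIC genes and -0.218 with Piezo1, and Piezo1 had r between -0.214 and -0.127 with the ASIC genes, none of which passed. Within groups Piezo1 had r = -0.405 with Asic1, -0.572 with Asic2 and -0.476 with Asic3, which were not tested.

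The ASIC genes also followed the neuronal markers. Asic1 had r = 0.731 and rho = 0.719 with the sensory neuron score (permutation p = 0.00043 and 0.00099, adjusted p = 0.00537 and 0.0124), with 0.631 without the 2 farthest libraries and 0.682 within groups. Asic2 (r = 0.599, rho = 0.659) and Asic3 (r = 0.564, rho = 0.556) had permutation p of 0.00872 and 0.0143 for r, with an adjusted p of 0.0397 each. For rho the adjusted p was 0.0172 for Asic2 and 0.0528 for Asic3, so that the rank correlation of Asic3 did not pass. Without the 2 farthest libraries they had r = 0.508 and 0.445, and within groups 0.663 and 0.517. Piezo1 ran the other way, with r = -0.572 and rho = -0.583 (permutation p = 0.0129 and 0.0126, adjusted p = 0.0397 and 0.0393), -0.566 without the 2 farthest libraries and -0.764 within groups. The relation of Asic1 passed with any 1 library left out (r from 0.667 to 0.790), while that of Asic2 did not pass without any of 5 single libraries (NPP_solvent replicate 2, Sham_herb replicate 2, Sham_solvent replicate 3, Ctrl_solvent replicate 3 or Ctrl replicate 3, r at least 0.534). Those of Asic3 (r at least 0.499) and Piezo1 (r at most -0.502) did not pass without any of 9 single libraries each. Without the 2 Ctrl libraries that lack Y-linked reads, Asic1 (r = 0.765) and Piezo1 (r = -0.701) passed, and Asic2 (r = 0.570) and Asic3 (r = 0.603) did not. On log2(FPKM + 0.1) none of the 4 passed, and Asic1 then had r = 0.621 (adjusted p = 0.052).

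Piezo2, whose implied gene length of 11931 bases was the greatest of the 5, followed the lean towards long genes. It had r = 0.770 and rho = 0.851 with the length slope (permutation p = 0.00017 and 4e-05, adjusted p = 0.00425 and 0.001), with 0.722 without the 2 farthest libraries, 0.765 within groups, 0.853 without the 2 Ctrl libraries and 0.737 to 0.865 with any 1 library left out. It also had r = 0.589 and rho = 0.653 with log2 depth (permutation p = 0.0101 and 0.00413, adjusted p = 0.0397 and 0.0172), 0.617 without the 2 farthest libraries and 0.859 within groups. Asic3, the shortest at 2422 bases, had the opposite sign with the length slope, r = -0.577 and rho = -0.583 (permutation p = 0.0123 and 0.0124, adjusted p = 0.0397 and 0.0393), with -0.588 without the 2 farthest libraries and -0.567 within groups. Piezo1, at 11798 bases nearly as long as Piezo2, had r = -0.107. Asic2, at 3656 bases, had r = -0.470 and rho = -0.461 (permutation p = 0.0506 and 0.0551, adjusted p = 0.115 each). Asic1, at 6782 bases, had r = 0.013. Neither of these passed, and the part of the length slope in the relation of Asic2 with Asic3 was not tested. The depth relation of Piezo2 and the length relation of Asic3 each did not pass without any of 7 single libraries (r at least 0.531 for the depth relation and at most -0.528 for the length relation), nor without the 2 Ctrl libraries (r = 0.581 and -0.540), nor on log2(FPKM + 0.1) (adjusted p = 0.059 and 0.0714).

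**Figure D3:**
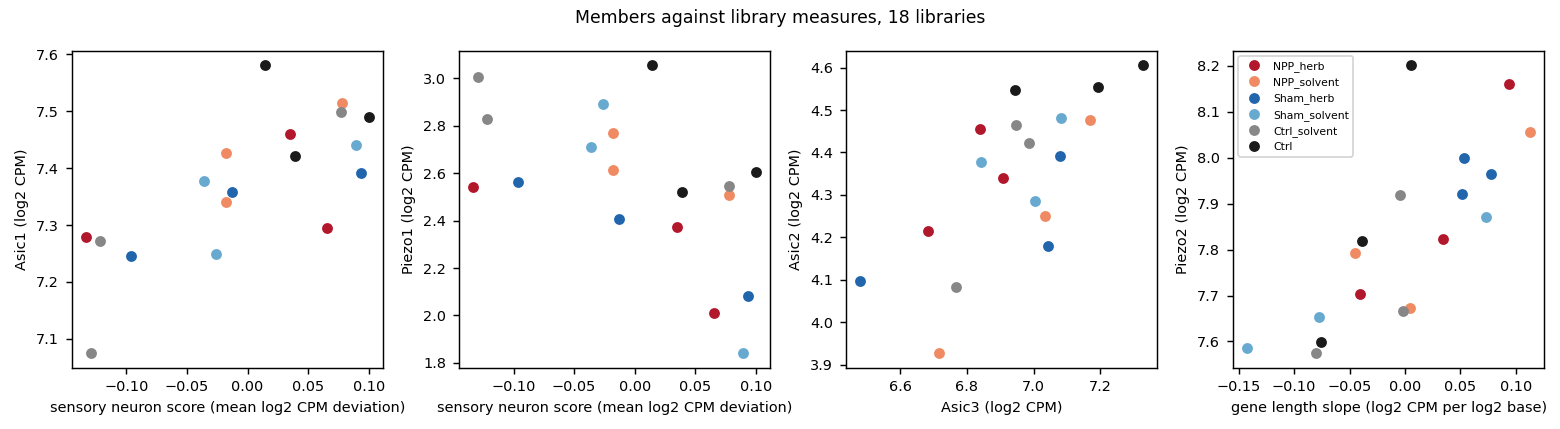
Log2 CPM of Asic1 and of Piezo1 against the sensory neuron score, of Asic2 against Asic3 and of Piezo2 against the gene length slope, 1 point per library coloured by group. The points rise together in 3 panels (r = 0.731, 0.711 and 0.770) and fall in the Piezo1 panel (r = -0.572), with the groups intermixed.

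The genes whose log2 CPM ran most like each channel over the 18 libraries, among 13230 genes with a known symbol and at least 1 CPM, are given as a description. For Piezo2 they were Phf24 (r = 0.934), Atp2b2, a calcium pump of the cell membrane (0.930), and Tln2, the cytoskeletal linker talin 2 (0.926). For Asic1 they were Ache, which encodes acetylcholinesterase (0.891), the chaperone partner Stip1 (0.883) and the mitochondrial enzyme Dlst (0.882). For Asic2 they were the actin nucleation factor Spire2 (0.912), Tlcd3b (0.908) and the glycosyltransferase Pomgnt2 (0.903). For Asic3 they were Asphd2 (0.862), Ppp1r16a (0.854) and Ccdc136 (0.841), and for Piezo1 Sipa1 (0.835), Safb2 (0.810) and the polarity gene Scrib (0.801). Piezo1, with few reads, had the lowest values of the 5. The 18 libraries differ in depth and in length lean, whose part in these values was not tested.

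Other genes of mechanical and acid sensing were measured alongside, and 33 of them were tested. EdgeR called none of the 33 in any of the 9 comparisons, as it called 0 of all 17043 genes (0%). An unadjusted edgeR p under 0.05 was most frequent in Ctrl_solvent against Ctrl, with 6 of the 33, beside 2218 of all 17043 genes. DESeq2 called 2 of the 33, Gpr65 and Kcnk4, in Ctrl_solvent against Ctrl, where it called 471 of all 17043 genes, and none in the other 8. Among 16 listed Piezo partners and other mechanosensitive channel genes, 15 were tested. Stoml3, which in the mouse tunes Piezo channels of touch neurons, was not tested at 0 to 8 reads per library. Tmem63b (34.6 FPKM) and Tmem150c (33.4 FPKM) had the highest mean levels over the 18 libraries, above Piezo2, and Tmc1 and Tmc2, channel genes of the inner ear, were near 0 at 0.03 and 0.10 FPKM. In NPP_solvent against Sham_solvent 8 of the 15 had a positive and 7 a negative log2 fold change, with a median of 0.06, where all tested genes had a median of 0.01. In NPP_herb against NPP_solvent 5 were positive and 10 negative, with a median of -0.07 beside -0.01 for all genes.

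The smallest unadjusted p of that list between NPP_solvent and Sham_solvent belonged to Tmc2. It had 0.673, 0.312 and 1.14 CPM in NPP_solvent, against 0.163, 0.118 and 0.236 CPM in Sham_solvent, and the groups did not overlap, as for 8.11% of all tested genes. With only 3 to 42 reads per library, its log2 fold change of 2.06 ± 0.68 did not pass (edgeR, adjusted p = 0.755). In NPP_herb, at 0.537, 0.167 and 0.171 CPM, it was -1.33 ± 0.67 relative to NPP_solvent (edgeR, adjusted p = 1.00). Both comparisons share the NPP_solvent libraries.

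Of 5 other degenerin and epithelial sodium channel genes only Asic4 and Scnn1a had enough reads to be tested, at 0.09 and 0.30 FPKM, both under Piezo1. Asic5 had at most 1 read in a library. Scnn1a, the alpha subunit of the epithelial sodium channel, had 2.31, 1.95 and 1.08 CPM in NPP_herb, against 0.598, 1.60 and 0.788 CPM in NPP_solvent, a log2 fold change of 0.83 ± 0.41 (edgeR, adjusted p = 1.00). NPP_solvent against Sham_solvent gave 0.09 ± 0.42 for it. The list's median log2 fold change was 0.05 for the model under solvent (2 positive, 0 negative) and -0.42 for herb in the model (1 positive, 1 negative). The negative value was that of Asic4, at -1.67 with 0 to 21 reads per library, which did not pass. A median of 2 genes so far apart describes neither of them.

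Of the ASIC partner genes 8 were tested. S100a10, the gene of an annexin-binding protein that helps carry channels to the membrane, was highest at 1698 FPKM, and Stoml1, which encodes a stomatin-like protein, stood at 39.8 FPKM. For the model under solvent 4 were positive and 4 negative with a median of -0.00048, and for herb in the model 2 were positive and 6 negative with a median of -0.09. Stom, which encodes stomatin, a membrane protein that in the mouse dampens ASIC3 currents, had the smallest unadjusted p. It had 22.1, 14.5 and 23.5 CPM in NPP_solvent, against 6.71, 16.3 and 13.8 CPM in Sham_solvent, with overlap, and its log2 fold change was 0.70 ± 0.34 (edgeR, adjusted p = 0.755). For herb in the model, with 17.7, 14.9 and 13.0 CPM in NPP_herb, it was -0.40 ± 0.34.

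Of 8 tested genes listed for other proton sensors, the channel Trpv1, opened by heat, capsaicin and acid, was highest at 24.7 FPKM, near the level of Asic1, followed by the proton-activated chloride channel gene Pacc1 at 8.54 FPKM and the acid-sensitive potassium channel gene Kcnk3 at 3.18 FPKM. For the model under solvent 3 were positive and 5 negative with a median of -0.13, and for herb in the model 6 were positive and 2 negative with a median of 0.06. Trpv1 had 98.8, 87.8 and 90.3 CPM in NPP_solvent, against 54.3, 73.9 and 66.1 CPM in Sham_solvent, and the groups did not overlap, as for 8.11% of all tested genes. Its log2 fold change of 0.51 ± 0.16 did not pass (edgeR, adjusted p = 0.755), and the gene is named for its unadjusted p, the smallest of the list. In the same comparison 3 of 3 peptidergic nociceptor markers (median 0.21) and 4 of 4 nonpeptidergic ones (median 0.27) had positive log2 fold changes, none of them called. Their summed levels were 1317 to 1551 and 1029 to 1114 CPM in NPP_solvent, against 1035 to 1446 and 829 to 979 CPM in Sham_solvent, and their part in the Trpv1 value was not tested. With 72.8, 63.4 and 108 CPM in NPP_herb the herb change was -0.18 ± 0.16 (edgeR, adjusted p = 1.00), and the groups overlapped.

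**Figure D4:**
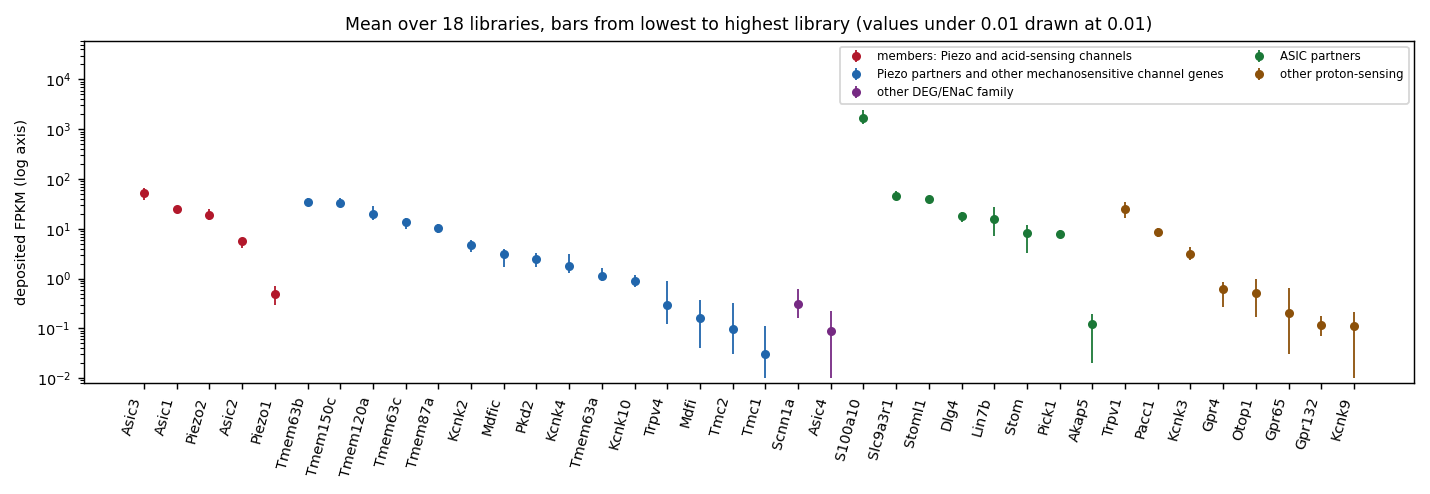
Mean deposited FPKM over the 18 libraries (points, log axis) of the 5 channel genes and of the related sensing genes that were tested, with lines from the lowest to the highest library. Asic3 at 51.4 FPKM stands above all mechanosensitive channel genes of the list, and S100a10 at 1698 FPKM is the highest gene shown.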

How the data were processed

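Messenger RNA of 18 rat dorsal root ganglion libraries was used. Per the labels' protocols, RNA was captured on beads and libraries were made with a stranded kit. The deposited count table holds whole reads per gene, not normalized by the authors. The deposited FPKM table holds the same libraries scaled by the authors to gene length and library size, for 25557 genes. The submitters' processing notes name HISAT2 and DESeq2, with no version, and the build mRatBN7.2. How reads were counted, with which annotation and whether by strand is not given in the sources used here. Antisense reads therefore cannot be told apart. All value columns were matched to samples by title (0 unmatched).

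Counts were filtered with filterByExpr, which left 17043 genes, scaled by TMM and tested with edgeR 4.0.16 in R 4.3.3 (quasi-likelihood F test, 2-sided) in one model of all 18 libraries with a coefficient for each group (12 residual degrees of freedom). P-values were adjusted by Benjamini and Hochberg's method over every gene tested, and 0.05 was the threshold. The SE is the size of the log2 fold change divided by the square root of F, and the 95% intervals use it with 12 degrees of freedom. The F test also borrows degrees of freedom from other genes, so the intervals are somewhat wider than its p-values imply. CPM are counts scaled after TMM. Log2 CPM in correlations used a prior count of 2, and permutation p came from 100000 resamples (smallest possible 1e-05), adjusted over 25 relations. The resamples shuffled libraries without regard to group, and no r within groups was tested. Alternatives were DESeq2 1.42.0, its size factors, no filter, limma 3.58.1 on log2(FPKM + 0.1) and log2(FPKM + 1), a replicate block, a length covariate, fits of the compared groups only and each library left out. Leaving out the 2 Ctrl libraries without Y-linked reads, and the alternatives for correlations, were added after seeing the data. Scripts were tested on simulated data. Replicates differed beyond sampling noise, so none was counted as a repeat.

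The channels and gene lists were chosen with earlier results of these data known. Named genes were all 5 channels, in each related list the gene with the smallest unadjusted p in NPP_solvent against Sham_solvent and in NPP_herb against NPP_solvent, and the 3 genes most like each channel by Pearson r. Related genes given with a level only, with those called by DESeq2, were chosen after their values were seen. The fold change of Asic4 was added as that of the other gene tested in its list. In the tables Nherf1 is listed as Slc9a3r1. The list of proton sensors also held Tmem206, the older symbol of Pacc1, under which no gene was found. A further proton-sensing gene, outside the lists as counted, is not reported here.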

Additional observations from a re-analysis of the deposited data

How the results depend on the processing

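None of 725 alternative fold changes of the 5 channels passed the threshold, 659 kept the direction of the reported value and 66 did not. Of the 14 reported fold changes larger than their SE, 2 changed direction under some alternative. Fits with the replicate number as a replicate block called 0 genes in every comparison, where the unblocked edgeR fit also called 0, and gave 0.25 for Piezo2 in Sham_herb against Sham_solvent. The labels share only a number: 4 of 18 same-numbered pairs correlated above 0.1 (r from -0.28 to 0.23), and 4 of 18 libraries correlated best with their own number.

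DESeq2 called 1 gene in NPP_herb against NPP_solvent, 2 in NPP_herb against Sham_herb, 35 in Sham_solvent against Ctrl_solvent, 471 in Ctrl_solvent against Ctrl, 3 for the herb difference between NPP and Sham, 2 for herb against solvent and 475 for any difference among the groups. EdgeR called 1 gene in Ctrl_solvent against Ctrl without the filter on low counts and with the length slope as a covariate, and limma called 1 on log2(FPKM + 0.1). The cause was not tested.

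Directions changed as follows. For Asic3 in NPP_solvent against Sham_solvent the log2 fold change was -0.0058 with DESeq2 size factors, -0.0058 in DESeq2 and -0.00024 with only those groups in the fit. For Asic1 in Sham_herb against Sham_solvent it was 0.0059 on log2(FPKM + 0.1) and 0.0055 on log2(FPKM + 1). With the length slope as a covariate, Piezo2 was -0.032 in NPP_solvent against Sham_solvent, 0.010 in NPP_herb against Sham_herb, 0.028 in Sham_solvent against Ctrl_solvent, 0.041 for the herb difference and -0.011 in NPP against Sham. With that covariate Asic3 was 0.095 in Sham_herb against Sham_solvent and Asic2 0.023 in herb against solvent.

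Leaving out each library in turn gave the following lowest and highest values. In NPP_solvent against Sham_solvent, Piezo1 ran from -0.17 to 0.29 and Asic3 from -0.097 to 0.11. In NPP_herb against NPP_solvent, Piezo2 ran from -0.078 to 0.19 and Asic2 from -0.013 to 0.25. In Sham_herb against Sham_solvent, 0 to 485 genes were called, Piezo1 ran from -0.45 to 0.015, Asic1 from -0.077 to 0.019 and Asic3 from -0.20 to 0.068. In NPP_herb against Sham_herb, 0 to 2 genes were called, Piezo1 ran from -0.15 to 0.10, Piezo2 from -0.19 to 0.048, Asic1 from -0.040 to 0.053 and Asic3 from -0.24 to 0.032. In Sham_solvent against Ctrl_solvent, 0 to 241 genes were called, Piezo1 ran from -0.45 to 0.00091, Piezo2 from -0.086 to 0.088, Asic1 from -0.014 to 0.18 and Asic2 from -0.042 to 0.12. In Ctrl_solvent against Ctrl, 0 to 717 genes were called, Piezo1 ran from -0.057 to 0.24 and Piezo2 from -0.30 to 0.013. For the herb difference, 0 to 1 genes were called, Piezo1 ran from -0.32 to 0.13, Asic1 from -0.10 to 0.00021 and Asic3 from -0.23 to 0.041. In NPP against Sham, Piezo1 ran from -0.10 to 0.13, Piezo2 from -0.031 to 0.091, Asic2 from -0.088 to 0.045 and Asic3 from -0.12 to 0.019. In herb against solvent, Asic2 ran from -0.090 to 0.045, and for any difference 0 to 305 genes were called.

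Piezo1 had 71 to 330 reads per library, and each group had 3 libraries. The order of levels was the same in 18 libraries by CPM per kilobase. The gene lengths for this were implied by the deposited counts and FPKM themselves, so it is no separate check of the order.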
